A study of Mus musculus with 13 samples.

Results

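*Krt7*, *Krt8*, *Krt18*, *Krt19*, *Epcam*, *Cldn3*, *Cldn4*, *Cldn7*, *Elf5* and *Ckmt1* are used as markers of simple and glandular (luminal) epithelium, and their RNA was followed here in gluteal white adipose tissue (WAT) of mice. The 10 genes were fixed by name, and each matched 1 of the 34419 genes in the raw count table. Only *Krt19*, *Epcam*, *Cldn3* and *Cldn4* were abundant enough to pass the filter on low counts, which 17779 genes passed. The other 6 are described by their counts. Male C57BL/6J mice were bred at 22°C (7 mice) or 29°C (6 mice) and stayed at that temperature until they were 13 weeks old. In both groups the posterior hair was removed with a depilatory cream after weaning, and the mice were single housed with minimal bedding. Each mouse gave 1 library. The study asked how white fat adapts to a cool environment, and the question put to these genes is whether they vary together from mouse to mouse, as they would if a single epithelial tissue came along with the fat.

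Epithelial cells hold on to each other through adhesion molecules and tight junctions, and they carry an inner scaffold of keratins. Simple epithelium, which is a single cell layer, builds that scaffold from the pair *Krt8* and *Krt18*, often with *Krt7* and *Krt19*. These keratins are also made by mesothelium, the flat lining of the body cavities and the organs in them. *Epcam* encodes an adhesion molecule of many epithelia, and *Cldn3*, *Cldn4* and *Cldn7* encode claudins, which seal tight junctions. *Elf5* encodes an ETS transcription factor known from the mammary gland. *Ckmt1* encodes the ubiquitous form of mitochondrial creatine kinase, which is also listed among genes of creatine cycling in fat. Adipocytes are not epithelial, so white fat is expected to hold little RNA of these genes beyond what other cells in the dissected piece bring. In bulk RNA, fewer cells of a type and less RNA per cell cannot be told apart.

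The promoters of *Epcam* and *Cldn4*, whose RNA varied together, and of *Krt7* and *Krt8*, which peaked in another library, are shown as the start-site sequences of genes that stand for the 2 patterns described below; no link between sequence and pattern was tested. They come from RefSeq (GRCm38.p6), cover 250 bases before to 50 bases after the start of the gene, and read 5′ to 3′ along the gene. Capitals mark the GC box GGGCGG on either strand (CCGCCC where it lies on the other strand) or the TATA box TATAAA on either strand.
Epcam, chr17:87635729-87636028, plus strand: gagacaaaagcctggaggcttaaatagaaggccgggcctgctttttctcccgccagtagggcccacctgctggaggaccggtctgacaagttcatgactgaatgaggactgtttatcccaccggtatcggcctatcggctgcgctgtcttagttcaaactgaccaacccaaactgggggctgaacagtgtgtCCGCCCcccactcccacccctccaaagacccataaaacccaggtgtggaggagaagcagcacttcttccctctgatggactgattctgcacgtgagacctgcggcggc
Cldn4, chr5:134946885-134947184, minus strand: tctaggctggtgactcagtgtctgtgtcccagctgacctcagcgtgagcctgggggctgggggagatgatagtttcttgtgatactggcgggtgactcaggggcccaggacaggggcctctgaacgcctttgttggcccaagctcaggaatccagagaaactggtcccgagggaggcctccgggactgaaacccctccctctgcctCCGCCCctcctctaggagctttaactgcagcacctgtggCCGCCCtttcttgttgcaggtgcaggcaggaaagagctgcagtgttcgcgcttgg
Krt7, chr15:101412153-101412452, plus strand: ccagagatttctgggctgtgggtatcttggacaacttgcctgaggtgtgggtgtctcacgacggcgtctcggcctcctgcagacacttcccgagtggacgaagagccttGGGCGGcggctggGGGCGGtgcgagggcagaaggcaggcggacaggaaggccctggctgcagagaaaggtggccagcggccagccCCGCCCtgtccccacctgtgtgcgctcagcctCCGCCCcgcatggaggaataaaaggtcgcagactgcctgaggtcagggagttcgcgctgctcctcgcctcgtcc
Krt8, chr15:102004293-102004592, minus strand: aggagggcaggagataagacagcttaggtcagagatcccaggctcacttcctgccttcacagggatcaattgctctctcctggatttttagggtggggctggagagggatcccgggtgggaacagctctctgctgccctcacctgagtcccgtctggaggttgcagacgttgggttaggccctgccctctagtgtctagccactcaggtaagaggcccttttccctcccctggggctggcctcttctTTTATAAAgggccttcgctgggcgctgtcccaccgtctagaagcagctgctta
The GC box was found in 35.7% of 32851 RefSeq promoters of the same length, and the TATA box in 13.6%. *Krt7* held 4 GC boxes, *Cldn4* held 2 and *Epcam* held 1. In *Krt8*, 2 matches to the TATA box overlapped, 1 on each strand. The Grainyhead motif AACNNGTT (4.2% of promoters) and the ETS motif CCGGAAG (8.86%) had no match in these 4 windows. A match is a run of letters only, and its use in these cells was not measured. Of the 10 genes, 9 had an entry in this table.

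The libraries held between 22356637 and 25245785 counts. With 3 counts as the upper limit behind a zero, an undetected gene may lie as high as 0.1128 to 0.1581 CPM (counts scaled to the TMM-adjusted size of the library), depending on the library, for counting error only. Mature adipocyte genes were abundant in all 13 libraries, with a summed level of 22800 to 37400 CPM. Other tissues were also represented, and unequally. Genes of the hair follicle summed to 3600 CPM in 29°C replicate 4, 1720 in 29°C replicate 5, 1300 in 22°C replicate 5 and 709 in 22°C replicate 4, against 3.4 to 115 CPM in the other 9 libraries. Mesothelium genes summed to 407 CPM in 22°C replicate 4 and to 4.51 to 15.7 CPM elsewhere. Skeletal muscle genes summed to 86.7 to 5940 CPM in the mice at 29°C, and to 682 to 75200 CPM in those at 22°C. Results are therefore given with and without these 4 libraries, which stand apart in hair follicle or mesothelium RNA. The totals themselves fell into 5 libraries with lower totals, all at 22°C, and 8 with higher totals, so that low totals and temperature cannot be told apart.

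The 10 genes did not vary as 1 group. *Epcam*, *Cldn4*, *Elf5* and *Ckmt1* were high in the same 3 mice, 29°C replicates 4 and 5 and 22°C replicate 5. *Krt7*, *Krt8*, *Krt18* and *Krt19* were highest in a single mouse, 22°C replicate 4, and a further mouse, 29°C replicate 1, had a smaller peak in *Krt8*, *Krt18* and *Krt19*. *Cldn3* followed neither pattern, and *Cldn7* reached no more than 7 counts in any library. These groupings were seen in the data and carry no test of their own.

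**Figure D1:**
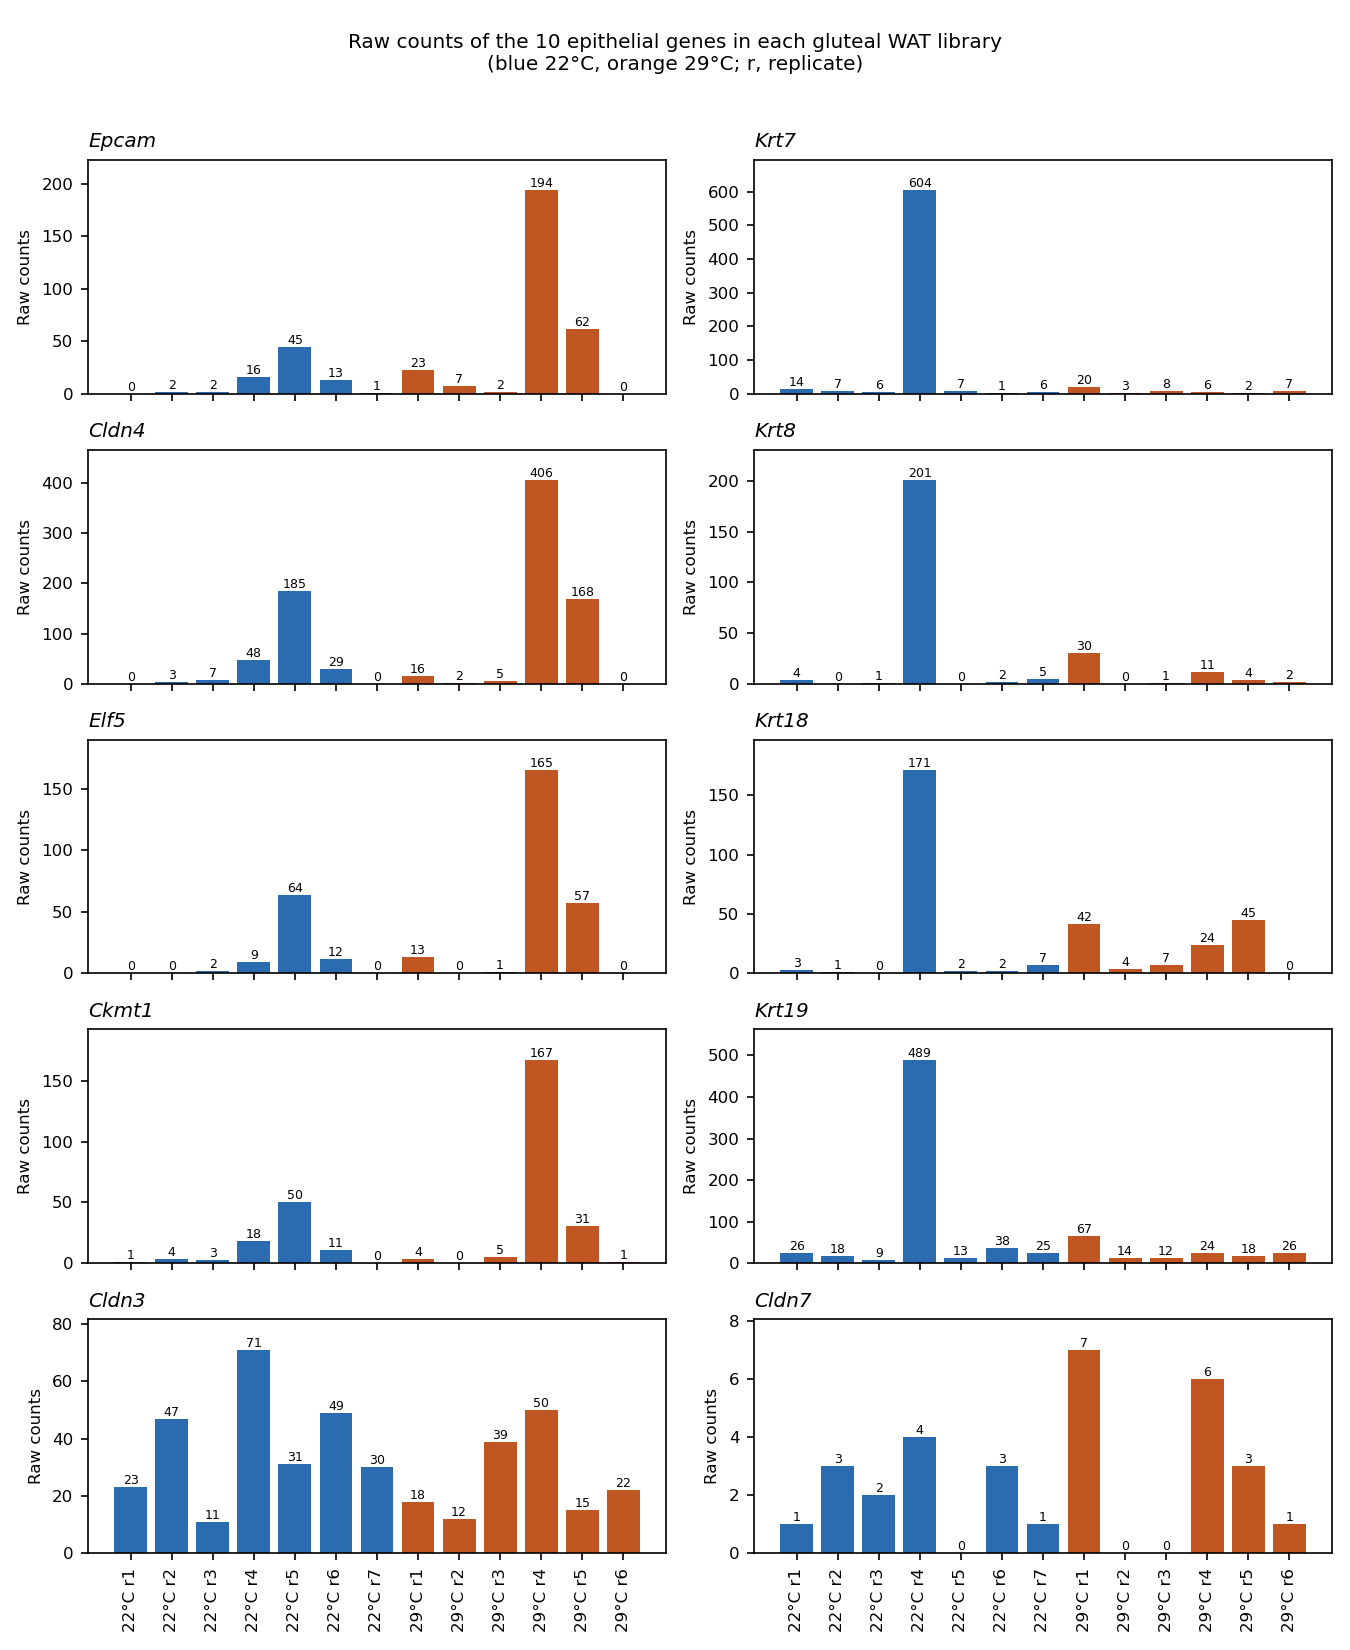
Raw counts (y axis, scaled for each gene) of the 10 genes in each library (x axis; blue, 22°C replicates 1 to 7; orange, 29°C replicates 1 to 6), with the count printed above each bar. The left column shows *Epcam*, *Cldn4*, *Elf5* and *Ckmt1* peaking in 29°C replicate 4, and the right column shows the keratins peaking in 22°C replicate 4.

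*Epcam* (ENSMUSG00000045394.10) had 194 counts in 29°C replicate 4, 62 in 29°C replicate 5 and 45 in 22°C replicate 5. Next came 29°C replicate 1 with 23 counts, 22°C replicate 4 with 16 and 22°C replicate 6 with 13, and the remaining 7 libraries had 7 or fewer. At 22°C its counts ran from 0 to 45 with a median of 2, and at 29°C from 0 to 194 with a median of 15, so the temperatures overlapped. The 3 highest mice held 82.0% of its 367 counts.

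*Cldn4* (ENSMUSG00000047501.4), a claudin of tight epithelia, ranked the same 3 mice at the top, with 406 counts in 29°C replicate 4, 185 in 22°C replicate 5 and 168 in 29°C replicate 5. It had 48 counts in 22°C replicate 4, 29 in 22°C replicate 6 and 16 in 29°C replicate 1, and at most 7 in the other libraries. Its range was 0 to 185 at 22°C (median 7) and 0 to 406 at 29°C (median 10.5). The same 3 mice held 87.3% of its 869 counts, and a zero count occurred at both temperatures.

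*Elf5* (ENSMUSG00000027186.16) had 165 counts in 29°C replicate 4, 64 in 22°C replicate 5 and 57 in 29°C replicate 5, and was at 0 in 5 libraries. *Ckmt1* (ENSMUSG00000000308.15) had 167, 50 and 31 counts in those mice and between 0 and 18 elsewhere. For both genes these 3 mice held most of the counts, 88.5% for *Elf5* and 84.1% for *Ckmt1*. The level in the highest library over the median of the others was 96 for *Elf5*, 59.8 for *Cldn4*, 40.5 for *Epcam* and 39 for *Ckmt1*, in CPM. The *Ckmt1* RNA of this depot thus lay mainly in mice with hair follicle RNA, and its median was 4 counts at 22°C and 4.5 at 29°C.

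*Krt7* (ENSMUSG00000023039.18), a keratin of ducts and of mesothelium, had 604 counts in 22°C replicate 4 and 1 to 20 counts in each of the other 12 libraries. That mouse held 87.4% of its 691 counts (exact 95% interval 84.7 to 89.8). *Krt8* (ENSMUSG00000049382.11) had 201 counts there, 30 in 29°C replicate 1, 11 in 29°C replicate 4 and at most 5 elsewhere. Its level in 22°C replicate 4, 8.43 CPM, was 7.32 times the next highest.

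*Krt18* (ENSMUSG00000023043.8), the partner of *Krt8*, had 171 counts in 22°C replicate 4. It also reached 45 counts in 29°C replicate 5, 42 in 29°C replicate 1 and 24 in 29°C replicate 4, and was at 7 or fewer elsewhere. *Krt8* had only 4 counts in 29°C replicate 5, so the 2 partners did not keep step in that mouse. *Krt19* (ENSMUSG00000020911.15), a keratin of glands, mesothelium and part of the hair follicle, was detected in every library, with 9 to 489 counts at 22°C (median 25) and 12 to 67 at 29°C (median 21). Its 2 highest libraries were 22°C replicate 4 (489 counts) and 29°C replicate 1 (67 counts). Keratin genes resemble each other and have pseudogenes, so reads could have been split among copies in the counting.

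*Cldn3* (ENSMUSG00000070473.5) was the most evenly spread of the 10, with 11 to 71 counts at 22°C (median 31) and 12 to 50 at 29°C (median 20). Its highest library held 17.0% of its counts, and its top level was 2.36 times the median of the others. *Cldn7* (ENSMUSG00000018569.13) had 0 to 4 counts at 22°C and 0 to 7 at 29°C, so at this depth it was close to the limit that a zero count allows. *Cldn3* and *Cldn4* are next to each other on chromosome 5 in RefSeq, yet their levels correlated little (below). *Krt8* and *Krt18* are also neighbours, on chromosome 15.

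None of the 4 genes that passed the filter differed between temperatures in edgeR's quasi-likelihood test at P-adj below 0.1 (Benjamini-Hochberg over all genes tested). Of all genes tested, 345 of 17779 (1.94%) were called. None of the 4 had an unadjusted p below 0.05. DESeq2 gave a p for all 10 genes, but no P-adj for *Krt7*, *Krt8* and *Cldn7*, which therefore could not be called. It called 0 of the 10, and 1676 of the 34358 genes it tested (4.88%). None of the 10 had an unadjusted p below 0.05 in DESeq2. Fold changes below are log2 values at 22°C relative to 29°C, with the standard error (SE).

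*Epcam* averaged 1.83 ± 2.83 CPM (SD, n = 6) at 29°C against 0.471 ± 0.683 CPM (SD, n = 7) at 22°C. In edgeR this gave -1.92 on the log2 scale, with SE 1.10 and P-adj 0.371. Without 29°C replicate 4 the value was -0.61, and over its alternatives it ran from -2.68 to -0.47, with P-adj from 0.311 to 0.808. *Cldn4* averaged 3.79 ± 6.18 CPM at 29°C against 1.63 ± 2.84 CPM at 22°C, a log2 fold change of -1.21 with SE 1.33 and P-adj 0.673 in edgeR. Without 29°C replicate 4 its value was 0.14, on the other side of 0. For both genes the SD at each temperature was larger than the mean.

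*Krt19* averaged 1.05 ± 0.783 CPM at 29°C against 3.74 ± 7.41 CPM at 22°C, a log2 fold change of 1.84 with SE 0.93 and P-adj 0.312. That difference rested on 22°C replicate 4, and without this library the value was -0.15. *Cldn3* averaged 1.01 ± 0.564 CPM at 29°C against 1.60 ± 0.779 at 22°C. In edgeR it had 0.67 with SE 0.40 and P-adj 0.388, and it lay between 0.26 and 0.94 over 26 alternatives. The exact permutation test over all 1716 splits of the mice, on mean log2 CPM, gave p = 0.359 for *Epcam*, 0.693 for *Cldn4*, 0.578 for *Krt19* and 0.15 for *Cldn3*.

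The remaining 6 genes were fitted without the filter, where 42 of 34419 genes (0.122%) were called and none of the 10. *Krt7* had a value of 3.68 (SE 1.35) with an unadjusted p of 0.0156 in edgeR and a P-adj of 0.317 (0.203 to 0.97 over its alternatives), and it was the only one of the 10 with an unadjusted p below 0.05 there. Without 22°C replicate 4 its value was 0.06. *Krt8* had 2.04 (SE 1.37), and *Krt18* had 0.51 (SE 1.20), but without that library they were -1.73 and -2.77. The -2.77 of *Krt18* had an unadjusted p of 0.00864 in edgeR and a P-adj of 0.339. For *Krt18* the mean log2 CPM was lower at 22°C by a difference of -0.84 even with all libraries, so the sign depended on the scale of averaging. DESeq2 replaced the count of 22°C replicate 4 as an outlier for *Krt7*, *Krt8* and *Krt19*, and gave 0.06, -1.67 and -0.15.

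*Elf5* had -1.50 (SE 1.29), *Ckmt1* -1.31 (SE 1.14) and *Cldn7* -0.33 (SE 0.76), with P-adj of 0.580, 0.586 and 0.869 in edgeR. Without the 4 libraries that stand apart these were -0.22, 0.68 and 0.14. Exact permutation tests on log2 CPM gave p = 0.496 for *Krt7*, 0.926 for *Krt8*, 0.473 for *Krt18*, 0.551 for *Elf5*, 0.804 for *Ckmt1* and 0.938 for *Cldn7*. The counts of the temperature groups overlapped for each of the 10 genes.

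**Figure D2:**
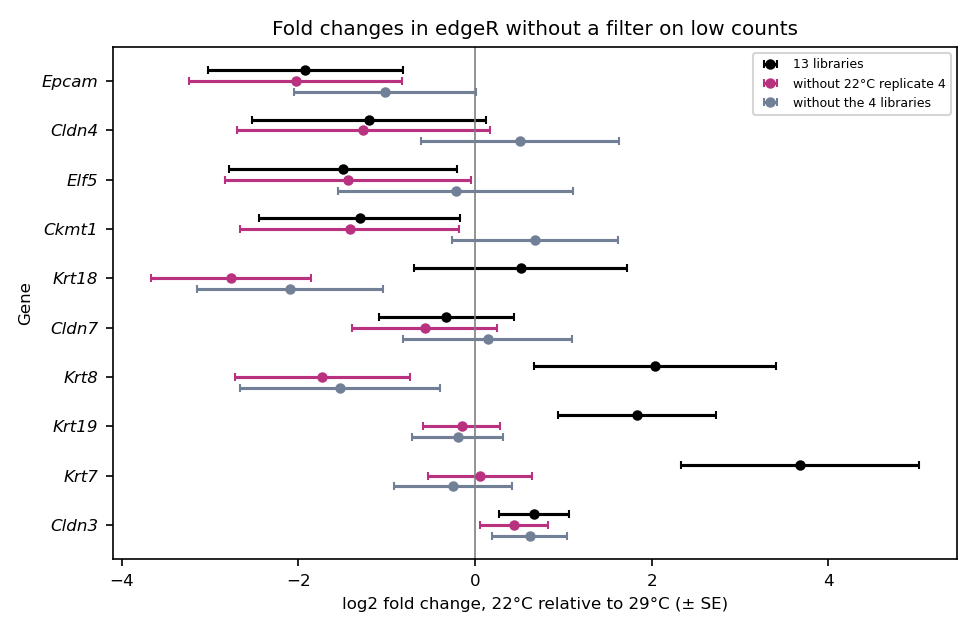
log2 fold change at 22°C relative to 29°C (x axis, ± SE) of each gene (y axis) in edgeR without a filter on low counts, with all 13 libraries (black), without 22°C replicate 4 (magenta) and without the 4 libraries that stand apart (grey). The keratins change most when 22°C replicate 4 is left out, with *Krt7* going from 3.68 to 0.06 and *Krt19* from 1.83 to -0.15.

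Across the 13 mice, log2 CPM of *Epcam* and *Cldn4* were closely correlated (Pearson r = 0.95, Spearman rho = 0.94). The permutation p of r was 1e-05, the smallest that 100000 resamples can give, and P-adj was 6e-05 over the 6 pairs of genes that passed the filter. Without the 2 libraries farthest from the median of *Epcam*, r was 0.91. Within 22°C r was 0.98 (exact permutation p = 0.0004), within 29°C it was 0.96 (exact permutation p = 0.00278), and without the 4 libraries that stand apart it was 0.83. In the 8 libraries with higher totals it was 0.96, whereas the other 5 libraries are too few to give a value.

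No other pair of the 4 genes passed the permutation test. The next highest was *Krt19* with *Cldn3* (r = 0.52, rho = 0.45, P-adj 0.179), and r was 0.18 without 22°C replicate 4. *Epcam* with *Cldn3* had r = 0.10 (P-adj 0.756), *Cldn3* with *Cldn4* 0.20 and *Krt19* with *Epcam* 0.11. The median r of the 6 pairs was 0.16 (jackknife SE 0.192 over the libraries).

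All 10 genes were then compared, a choice made after it was seen that only 4 passed the filter. Of 45 pairs, 43 had a positive r, the median was 0.40, and 11 had P-adj below 0.05 by Pearson r and 7 by Spearman rho. The 6 pairs among *Epcam*, *Cldn4*, *Elf5* and *Ckmt1* had r between 0.88 (*Epcam* with *Ckmt1*) and 0.97 (*Cldn4* with *Elf5*). For these 6 pairs rho was between 0.77 and 0.95, and r within each temperature between 0.86 and 0.99. Without the 4 libraries that stand apart, r remained between 0.45 and 0.91. Among the mice left, *Elf5* was above 2 counts only in 22°C replicate 6 (12) and 29°C replicate 1 (13). *Ckmt1* was above 5 counts only in 22°C replicate 6 (11). These r values therefore rest on few libraries, with the others near 0 counts.

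Among the keratins, pairs with *Krt7*, and *Krt18* with *Krt19* (0.70 to 0.35), lost much of their correlation without 22°C replicate 4. The pairs of *Krt8* with *Krt18* and *Krt19* lost less. *Krt7* with *Krt8* had r = 0.83 but rho = 0.28, and r was 0.43 without that library. *Krt7* with *Krt19* went from 0.86 to 0.34, and *Krt7* with *Krt18* from 0.61 to 0.06. *Krt8* with *Krt19* (0.92, P-adj 0.00212 over the 45 pairs, rho 0.74) and *Krt8* with *Krt18* (0.85, P-adj 0.00377, rho 0.69) went to 0.76 and 0.72. Between the patterns, r was low. *Krt7* had values between -0.04 and 0.06 with *Epcam*, *Cldn4*, *Elf5* and *Ckmt1*, and *Krt8* between 0.22 and 0.27. *Krt18*, which was raised in mice of either kind, had between 0.40 and 0.55. Within 29°C *Krt18* had 0.61 to 0.82 with these 4 genes and *Krt8* had 0.43 to 0.61. Within 22°C the values were 0.12 to 0.26 and 0.01 to 0.13. Without 22°C replicate 4 they were 0.38 to 0.63 and 0.13 to 0.30.

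**Figure D3:**
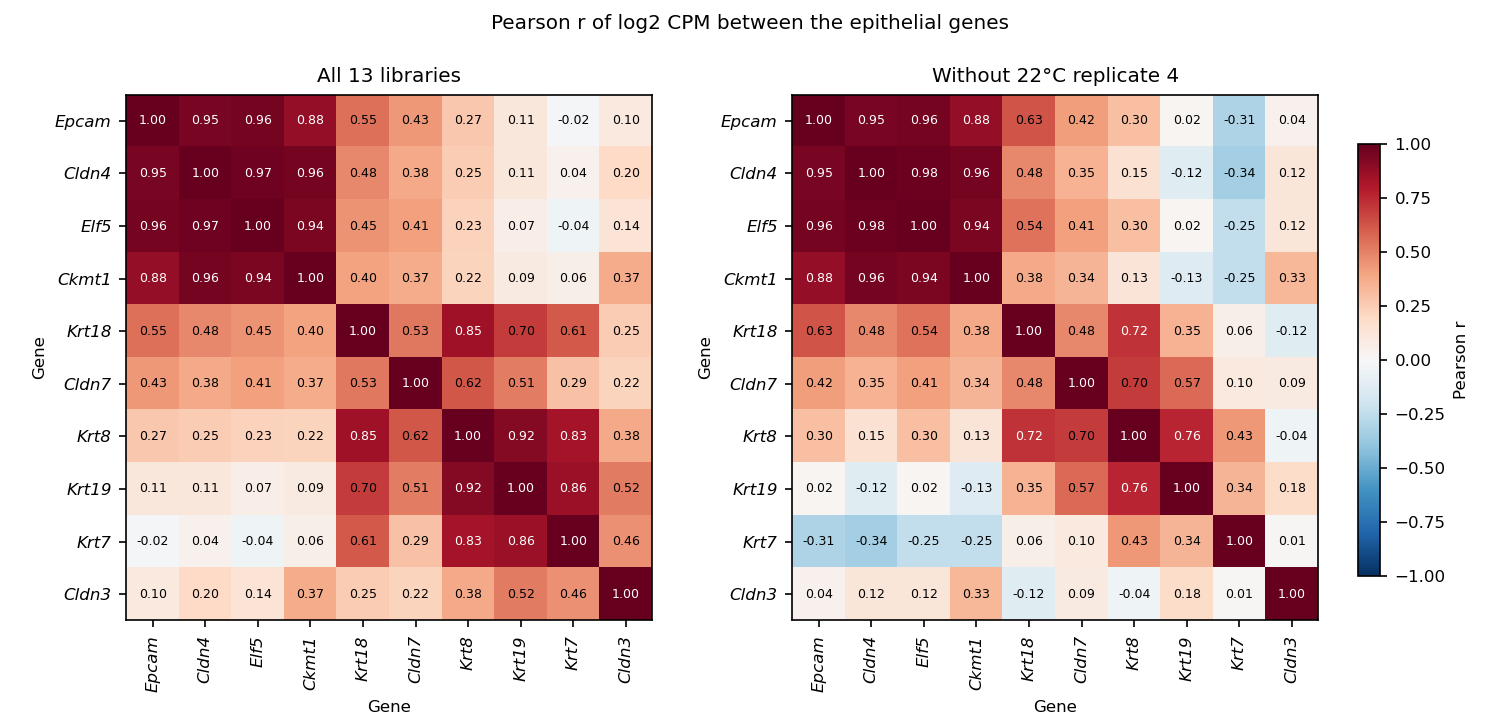
Pearson r of log2 CPM for each pair of the 10 genes (both axes, color scale from -1 to 1), over all 13 libraries (left) and without 22°C replicate 4 (right). The block of *Epcam*, *Cldn4*, *Elf5* and *Ckmt1* stays at 0.88 or above in both panels, whereas *Krt7* with *Krt8* goes from 0.83 to 0.43.

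The genes of other cell types that a piece of gluteal fat can hold were read beside these values. Of the hair follicle genes, *Tchh*, which encodes trichohyalin of the inner root sheath, had 38708 counts in 29°C replicate 4, 20247 in 29°C replicate 5, 9593 in 22°C replicate 5 and 6628 in 22°C replicate 4, and the inner root sheath keratins *Krt71* and *Krt25* peaked in the same mice. All 12 hair follicle genes were in the table and 10 passed the filter. *Cldn4* and the mean log2 CPM of those 10 had r = 0.96 and rho = 0.92 (P-adj 0.00016 over 32 pairs of gene and list, permutation test), and 0.94 without the 2 farthest libraries. Within 22°C and within 29°C r was 0.98 (exact permutation p = 0.0004 and 0.00417). Without the 4 libraries it was 0.84, with no pair of the 32 past the threshold at that number of mice.

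*Epcam* had r = 0.89 and rho = 0.92 with the hair follicle list (P-adj 0.00064). With basal and stratified epithelium, whose most abundant tested genes were the integrin *Itgb4*, the epidermal regulator *Trp63* and the desmosome gene *Perp*, *Epcam* had 0.91 and *Cldn4* 0.93. With 14 tested genes shared by most epithelia, led by the protease inhibitor *Spint2*, the junction gene *Lsr* and the splicing regulator *Esrp2*, the values were 0.91 and 0.94. *Elf5* had 0.93 with the hair follicle list, 0.91 with the basal list and 0.93 with the shared list, and *Ckmt1* had 0.93, 0.93 and 0.92, each with P-adj below 0.05 over the 80 pairs of all 10 genes with the lists. *Perp* had 2759 counts in 29°C replicate 4, 1273 in 22°C replicate 5, 928 in 29°C replicate 5 and 465 in 22°C replicate 4, against 9 to 309 elsewhere. *Itgb4* and *Trp63* varied less and were not highest in these mice alone. *Itgb4* had 205 to 785 counts and its highest level, 33.3 CPM, in 22°C replicate 7, and *Trp63* had 225 to 760 counts and its highest level, 29.4 CPM, in 29°C replicate 3. In these libraries *Epcam*, *Cldn4*, *Elf5* and *Ckmt1* varied with RNA of skin epithelium from mouse to mouse, within either temperature. They were grouped after their values were seen, and the lists were chosen with earlier results of these data known. The P-adj values therefore describe these mice and are no independent test. The lists differ in size and overlap in the mice that carry them, and which of them a given read came from was not tested.

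Genes of the interfollicular epidermis and of the hair follicle were not high in all the same mice. *Krt1* and *Lor*, genes of the differentiating and cornified epidermis that were picked out after their values were seen, had 549 and 466 counts in 22°C replicate 6, where *Tchh* had 769. In 29°C replicate 5, with 20247 *Tchh* counts, they had 25 and 19. *Cldn4* had 29 counts in the first mouse and 168 in the second, and *Epcam* had 13 and 62. In 29°C replicate 4, the mouse with the highest *Epcam*, *Krt1* had 786 counts. *Krt1* and *Lor* had 0 and 8 counts in 22°C replicate 4, where *Tchh* had 6628. They had 2 and 13 counts in 22°C replicate 5, where *Tchh* had 9593.

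**Figure D4:**
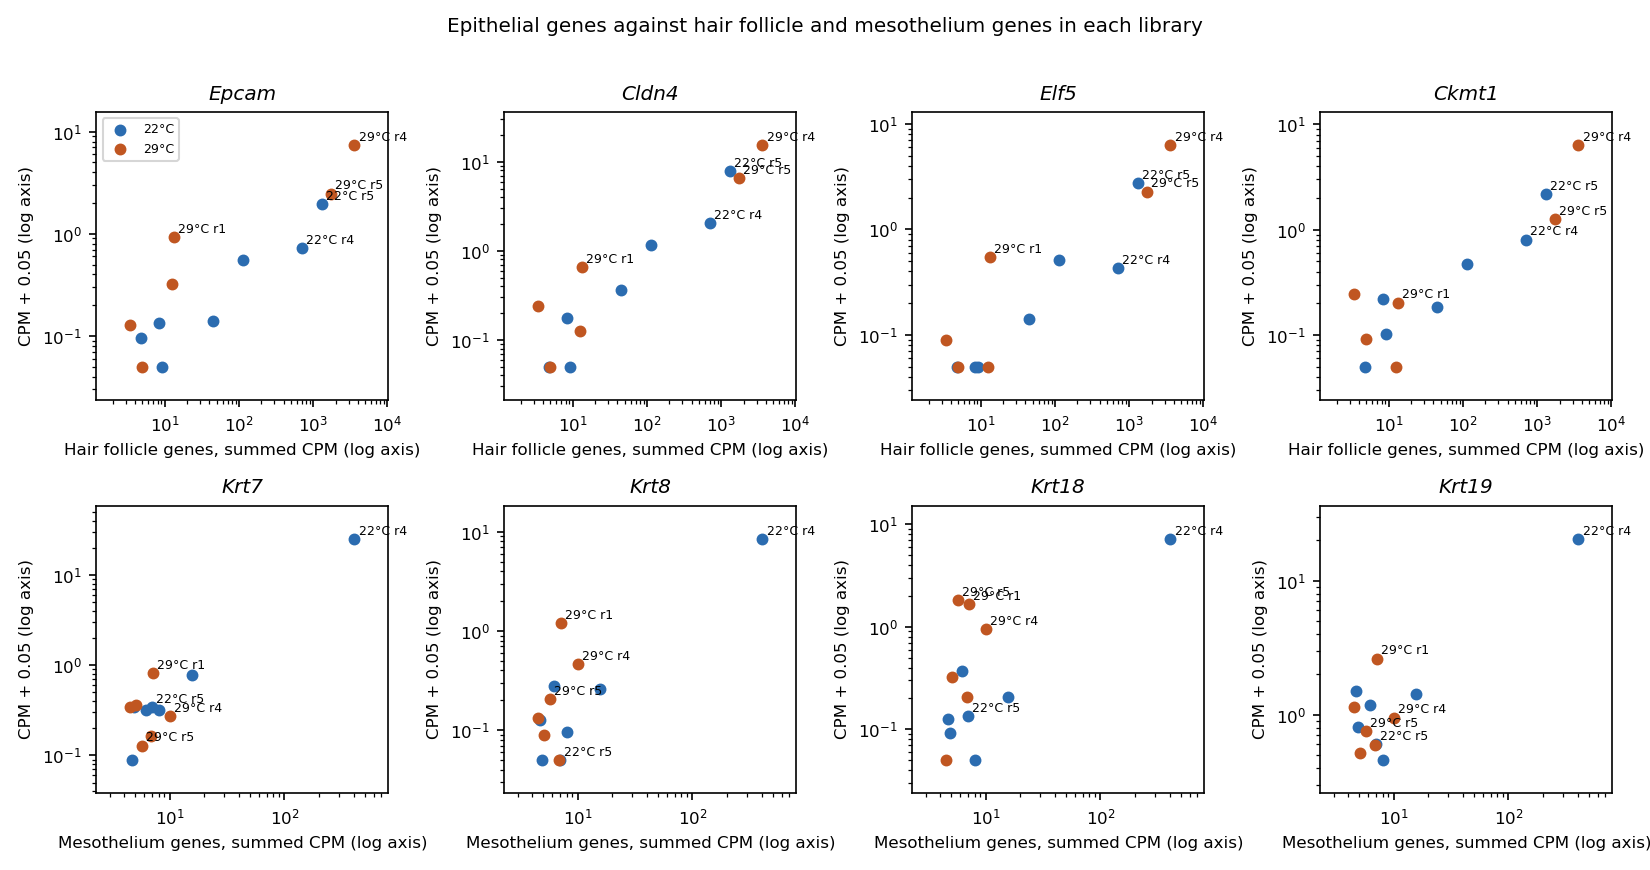
CPM of *Epcam*, *Cldn4*, *Elf5* and *Ckmt1* against the summed CPM of 12 hair follicle genes (top row), and of *Krt7*, *Krt8*, *Krt18* and *Krt19* against the summed CPM of 8 mesothelium genes (bottom row), 1 point per library, log axes, with 0.05 added to the CPM on the y axis so that 0 can be drawn. In the top row 29°C replicate 4, with 3600 CPM of hair follicle genes, is highest in each panel, and in the bottom row 22°C replicate 4 lies alone at 407 CPM of mesothelium genes.

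In 22°C replicate 4, the keratin peak came with RNA of mesothelium. *Lrrn4* had 1821 counts there against 46 to 125 elsewhere, and *Gpm6a* had 843 against 23 to 58. These were the 2 mesothelium genes that passed the filter. The other 6 genes of the list were also highest there. *Upk3b* had 3510 counts, *Msln* (mesothelin) 1199, *Upk1b* 947, *Muc16* 695, *Wt1* 376 and *Bnc1* 307. Among the remaining 12 libraries the highest counts were 66 for *Upk3b*, 35 for *Msln*, 25 for *Upk1b*, 14 for *Muc16* and 32 for *Wt1*, all in 22°C replicate 1, where *Krt7* had 14 counts, and 103 for *Bnc1* in 29°C replicate 4. *Krt19* and the mean of these 2 tested genes had r = 0.85 but rho = 0.05 (P-adj 0.19 for r, permutation test). Its r was -0.04 without the 2 farthest libraries, so that relation rested on this mouse. *Krt7* had r = 0.92 and rho = 0.44 with that mean (P-adj 0.059 for r over the 80 pairs, permutation test). *Krt8* had 0.79 and 0.17 (P-adj 0.175), and *Krt18* 0.64 and 0.23 (P-adj 0.175). Without 22°C replicate 4, r was 0.33 for *Krt7*, 0.03 for *Krt8* and 0.01 for *Krt18*. The same mouse had 709 CPM of hair follicle genes, with 16 *Epcam* and 48 *Cldn4* counts, both below those of 22°C replicate 5, which had 1300 CPM. Whether its *Krt7*, *Krt8*, *Krt18* and *Krt19* counts came from mesothelium was not tested.

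29°C replicate 1 showed another combination. It had 67 *Krt19*, 42 *Krt18*, 30 *Krt8*, 23 *Epcam*, 20 *Krt7* and 7 *Cldn7* counts, and was the highest library for *Cldn7* and the next highest for *Krt7*, *Krt8* and *Krt19*. Yet *Tchh* had only 23 counts there, and the mesothelium genes summed to 7.18 CPM. Genes of glandular epithelium, picked out after their values were seen, were low but present. *Pgr*, the progesterone receptor, had 40 counts (0 to 57 elsewhere), *Wfdc18* had 20, *Csn3* (kappa-casein) had 12, *Foxa1* had 8 and was at 0 in the other 12 libraries, and *Areg* had 7. Of the same list, only *Csn3*, *Wfdc18* and *Foxa1* were highest in this mouse. *Pgr* was higher in 22°C replicate 4, with 57 counts. *Tspan8* had 107 counts against 454 in 22°C replicate 7, and *Aldh1a3* had 775 against 1257 in 29°C replicate 4. *Muc15* had 2 counts against 116 in 29°C replicate 4, *Cited1* had 23 against 83 in 22°C replicate 4, and *Areg* had 7 or 8 in 3 further libraries. *Csn3* was also seen in 22°C replicate 4 (6 counts), 29°C replicate 4 (3) and 29°C replicate 5 (2). The milk genes *Csn2*, *Wap*, *Lalba* and *Glycam1* had at most 2 counts in any library. These counts are small, and the cells behind them were not identified.

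Proportions among the genes are given for single mice. Ratios were taken where both genes had at least 10 counts, with exact 95% intervals for counting error. In 29°C replicate 1, *Cldn4* over *Epcam* was 0.696 (0.343 to 1.38). In the 5 other libraries it was 2.09 (29°C replicate 4), 2.23 (22°C replicate 6), 2.71 (29°C replicate 5), 3 (22°C replicate 4) and 4.11 (22°C replicate 5), with lower bounds of 1.12 or more. The interval of 29°C replicate 1 overlapped only that of 22°C replicate 6. These intervals hold no spread between mice, so the differences are a description of single libraries. *Krt7* over *Krt8* was 3 in 22°C replicate 4 (2.56 to 3.54) and 0.667 in 29°C replicate 1 (0.359 to 1.21). *Krt19* over *Krt8* was 2.43 and 2.23 in these mice, with intervals that overlapped.

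*Krt19* passed P-adj below 0.05 with the mammary gland list and no other (r = 0.78, rho = 0.91, P-adj 0.00032, permutation test). This r was 0.79 without the 2 farthest libraries and 0.86 without the 4 that stand apart. Only 5 of the 15 mammary genes in the table passed the filter, namely *Aldh1a3*, *Prlr*, *Tspan8*, *Muc1* and *Cited1*. Of these, *Aldh1a3* had 225 to 1257 counts and *Prlr* 332 to 663 counts over the libraries. The list's summed level varied less than those of skin, from 38.7 to 71.6 CPM. These 5 genes are not confined to mammary tissue, so the relation names no tissue. *Krt8* had r = 0.69 and rho = 0.73 with this list (P-adj 0.0359 for r over the 80 pairs, permutation test), and *Epcam* had r = -0.02.

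The other lists did not follow the epithelial genes beyond the permutation test. Of the sebaceous gland list, led by *Far2*, *Scd3* and *Mc5r*, r was between -0.48 and -0.12 with the 4 tested genes, although *Awat2*, an enzyme of sebum wax synthesis chosen after its values were seen, reached 309 counts in 29°C replicate 2, where *Epcam* had 7. With skeletal muscle, led by *Acta1*, *Myh4* and *Atp2a1*, r was between 0.01 and 0.36 over all mice. Within the temperatures it had opposite signs for *Cldn4* (-0.73 at 22°C, 0.74 at 29°C) and *Epcam* (-0.65 and 0.77), with exact permutation p between 0.0653 and 0.115, not adjusted. *Krt18*, which did not pass the filter, had 0.99 with muscle at 29°C (exact permutation p = 0.00278, not adjusted) and 0.41 at 22°C, with 0.46 over all mice (P-adj 0.31). With mature adipocytes, led by *Lpl*, *Fabp4* and *Pnpla2*, r was between -0.51 and -0.04. In all, 7 of the 32 pairs passed P-adj below 0.05, of which 6 joined *Epcam* or *Cldn4* with the hair follicle, basal and shared epithelial lists.

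Between temperatures, 0 of the 66 tested genes of these 8 lists were called in edgeR, with 10 at an unadjusted p below 0.05, a level that 18.5% of all tested genes reached. DESeq2 called 6 of 97, and 4.88% of all genes it tested. The median log2 fold change was -1.38 for the hair follicle list (all 10 tested genes below 0), -0.71 for the basal list (all 11 below 0) and -0.40 for the shared epithelial list (9 of 14 below 0), against 0.01 for all genes. The smallest P-adj in these lists was 0.449, 0.149 and 0.317. Mesothelium had 2.05, mammary genes -0.04, sebaceous genes 0.08, skeletal muscle 2.97 and adipocyte genes -0.10. *Epcam* and *Cldn4*, at -1.92 and -1.21, thus lay on the same side as the hair follicle genes. Neither these 2 genes nor any hair follicle gene was called in edgeR.

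Of all tested genes outside the 10, those most like the mean log2 CPM of the 4 tested genes were *Arhgef19* (r = 0.951), *Krtap7-1* (0.949), *Krtap8-1* (0.949), *Krtap11-1* (0.945), *Ly6d* (0.934), *Krt33b* (0.922), *Krt25* (0.920), *Krt75* (0.920), *Prom2* (0.919) and *Nfe2l3* (0.918), over 13 libraries. *Krtap7-1*, *Krtap8-1* and *Krtap11-1* encode keratin-associated proteins of the hair shaft, and *Krt33b*, *Krt25* and *Krt75* encode keratins of the hair and its sheaths. Their highest counts were 5609, 3968 and 3102 for the keratin-associated proteins, and their lowest were 0. Ranked against single genes, a list added after the data were seen, the closest were *Ephb3* for *Epcam* (0.968), *Prom2* for *Cldn4* (0.978), *Krtap8-1* for *Elf5* (0.959) and *Nectin4* for *Ckmt1* (0.962). For *Krt7* they were *Hmcn1* (0.917) and the mesothelium gene *Gpm6a* (0.915), with rho of only 0.40 and 0.45. For *Cldn3* the closest was *Sema3e* (0.941, rho 0.95), which encodes a semaphorin, with 70 to 191 counts over the libraries. *Krt19* was closest to *Nxph3* (0.923, rho 0.64) and *Wnt2b* (0.91, rho 0.66). The mean of the 4 tested genes does not stand for each of them, as the median r of their pairs was 0.16.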

How the data were processed

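Gluteal WAT RNA was sequenced from 7 mice at 22°C and 6 at 29°C, grouped and numbered by the submitters' labels. The authors aligned reads with STAR 2.7.5a and counted them per gene with featureCounts, and the deposited raw counts of 34419 genes carry no normalization. The authors also deposited regularized log2 values from DESeq2, used here only in an alternative. The submitters' processing notes list GRCm39. The annotation and strand setting are not given in the sources used here, so counts of overlapping, antisense and near-identical genes are uncertain. Symbols were matched by Ensembl identifier for 34006 genes.

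Counts were compared with edgeR 4.0.16 in R 4.3.3 (TMM, filterByExpr, quasi-likelihood F test, Benjamini-Hochberg adjustment, P-adj below 0.1, no block). Standard errors were obtained from the fold change and F. Levels are CPM on TMM-scaled totals, with a prior count of 2 where log2 is taken. Correlations used two-sided permutation tests with 100000 resamples, exact within a temperature (scipy 1.17.1). P-values measure the spread between mice. No 2 libraries agreed within sampling noise (lowest chi-square per gene 15.5). The edgeR and DESeq2 fits, but not the correlations, were tested on simulated counts with changes placed in the more abundant genes only. Promoters were scanned on both strands.

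The text names all 10 genes, the genes of 8 other cell type lists that were called, the 3 most abundant tested genes of each list, and the 10 genes most like the mean of the tested 4. Others were chosen after their values were seen. The 10 genes and the lists were chosen with earlier results of these data known. Alternatives were DESeq2 1.42.0, its size factors, totals without TMM, no filter, a mean of at least 10 counts, robust fitting, a replicate block, the totals cluster as covariate, P-adj below 0.05, limma 3.58.1 on the regularized log2 values, other scales for correlations, and each mouse left out. Fits without 4 libraries and the comparison of all 10 genes were added after seeing the data.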

Additional observations from a re-analysis of the deposited data

Results flagged for a closer look

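In 4 of 20 tests for a library far from its group, 22°C replicate 4 lay above the other 6 mice at 22°C by more than Dixon's 95% limit for the gap over the range. Chance flags about 1 in 20 groups, and these 4 tests are not independent because they concern the same mouse. *Krt7* was at 4.67 log2 CPM in this library, with the next mouse at -0.29. *Krt8* was at 3.09 with the next at -1.69, *Krt18* at 2.86 with the next at -1.32, and *Krt19* at 4.36 with the next at 0.63. The 8 mesothelium genes summed to 407 CPM in the same library and to at most 15.7 CPM elsewhere, and the hair follicle genes to 709 CPM. The part of either in these values was not tested. None of the 10 genes was flagged at 29°C, and *Epcam*, *Cldn3*, *Cldn4*, *Cldn7*, *Elf5* and *Ckmt1* were not flagged at 22°C.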

How the results depend on the processing

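None of the 10 genes was called under any of the 26 alternatives, each of which tested between 2 and 10 of them. DESeq2 gave *Krt7*, *Krt8* and *Cldn7* a p but no P-adj. The number of all genes called was 345, and it was 1676 with DESeq2, 148 with totals without TMM, 42 with no filter, 4 with the totals cluster as covariate, 40 at P-adj below 0.05, 9 without the 4 libraries that stand apart, 25 with no filter and without 22°C replicate 4, and 3 with no filter and without the 4 libraries. Leaving out 1 mouse at a time gave 32 (without 29°C replicate 3) to 652 (without 22°C replicate 6). Genes of the other lists went from 0 called to 6 with DESeq2 (*Lamb3* and *Awat2* lower at 22°C, *Acta1*, *Atp2a1*, *Myh2* and *Myh4* higher), and to between 0 and 1 with 1 mouse left out, the 1 being *Muc1* (-0.68, P-adj 0.0938) without 22°C replicate 4. Fewer mice or more genes entered some of these fits, and no other cause was tested.

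The median r of the tested pairs was 0.16, 0.404 with all 10 genes, and 0.083 to 0.319 with 1 mouse left out. The number of gene and list pairs past P-adj below 0.05 was 7, remained 7 with any 1 mouse left out, and was 0 without the 4 libraries, where 9 mice remained.

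Signs turned as follows. Without 22°C replicate 4, *Krt19* was -0.145 (-0.154 with no filter), *Krt8* -1.728 and *Krt18* -2.766. Without the 4 libraries, *Krt19* was -0.187 (-0.199 with no filter), and with no filter *Krt7* was -0.251, *Krt8* -1.525, *Krt18* -2.092, *Cldn4* 0.509, *Cldn7* 0.141 and *Ckmt1* 0.678. With 1 mouse left out, *Krt19* ran from -0.145 to 2.334 and *Cldn4* from -1.468 to 0.136, its highest value, without 29°C replicate 4. DESeq2, which replaced the count of 22°C replicate 4, gave -1.67 for *Krt8* and -0.153 for *Krt19*. *Epcam*, *Cldn3* and *Elf5* kept their sign in each alternative that gave a value.

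The replicate numbers are not stated to mark litters or days. Deviations of same-numbered mice correlated above 0.1 in 5 of 6 pairs (0.0508 to 0.513). At 29°C 2 of 6 mice and at 22°C 4 of 6 correlated best with their own number. Whether same-numbered mice shared a litter or day was not tested. The numbers were not taken as pairs because the labels do not say what they mark. With the replicate block, 214 genes and none of the 10 were called. In that fit *Krt19* had 0.646, *Epcam* -1.278, *Cldn3* 0.718 and *Cldn4* -0.365. Without the block these were 1.837, -1.921, 0.669 and -1.206.

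Most of these genes had a few counts in most mice, so small differences between those mice could not be told from counting error at this depth.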
